A study of Mus musculus with 6 samples.

Results

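The Mir297, Mir466, Mir467 and Mir669 genes form a rodent miRNA family of many near-identical hairpins, most of which lie together inside an intron of Sfmbt2. The members were chosen by name, as every annotated mouse miRNA gene whose symbol begins with Mir297, Mir466, Mir467 or Mir669, and numbered 81 of the 1174 mouse hairpins that GENCODE M21 lists under a Mir name. Small RNAs of wild-type C57BL/6 bone marrow monocytes were sequenced in 3 control samples, which received PBS, and in 3 samples that received 5 pg/ml lipopolysaccharide (LPS), the endotoxin of Gram-negative bacteria, for 4 h. The culture medium was DMEM by the labels and RPMI by the methods of the study. The study asked which miRNAs respond to this very low dose. Nothing in the labels says whether samples came from separate mice or cultures, so the p-values measure only the spread between these samples, which may be technical.

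A miRNA is cut from one side (5p or 3p arm) of a folded hairpin and guides silencing of mRNAs that pair with its seed, bases 2 to 8 counted from its 5′ end. Sfmbt2 encodes a Polycomb-group protein that is expressed from the paternal allele in mouse extra-embryonic tissues, and its intron holds one of the largest miRNA clusters of the mouse, best known from the placenta and from embryonic stem cells. Because the hairpins arose by repeated duplication, a short read often fits many of them. A read was therefore counted once for the whole family, and the level of the family is given in RPM, its reads per 1000000 reads that match any named hairpin.

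The most abundant reads of the 7 leading family arms are shown first, since the tests below are on these arms. An arm here is a group of hairpin sides whose reads cannot be told apart, and it is called by its lead hairpin (Mir669a-5p stands for 14 hairpins). The sequences are deposited reads, written 5′ to 3′ in DNA letters, with the seed in capitals. The Mir467d-5p arm is shown with both of its start positions.
Mir467c-5p: tAAGTGCGtgcatgtatatgtg
Mir467a-5p: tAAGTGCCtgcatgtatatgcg
Mir467d-5p, upstream start: aTAAGTGCgcgcatgtatatg
Mir467d-5p, downstream start: tAAGTGCGcgcatgtatatg
Mir467e-5p: tAAGTGTGagcatgtatatgtg
Mir669a-5p: aGTTGTGTgtgcatgttcatgtct
Mir669a-3p: aCATAACAtacacacacacgta
Mir466-3p: aTACATACacgcacacataagac

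The 4 Mir467 reads differ from each other at few bases, and some of these lie in the seed. With position 1 the first (5′) base of the Mir467a-5p read, the Mir467c-5p read carries C8G and C21T. The downstream Mir467d-5p read carries C8G and T9C over its 20 bases. The Mir467e-5p read carries C7T, C8G, T9A and C21T. The seed letters AAGTGCG are thus shared by Mir467c-5p and Mir467d-5p, while Mir467a-5p has AAGTGCC and Mir467e-5p has AAGTGTG. The Mir669a-3p and Mir466-3p reads hold stretches of alternating A and C, and the Mir669a-5p read one of alternating T and G.

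On GRCm38, 71 of the 81 hairpins lay within Sfmbt2 (chr2:10370510-10595253, plus strand) and all 71 were on the strand of the gene. They spanned 51.6 kb (chr2:10466663-10518279) and sat in one 62.5 kb intron (chr2:10461473-10523944), which is intron 10 or 11 in the 2 annotated transcripts of 23 exons. The median distance between the starts of neighbouring hairpins was 298.5 bp. Mir467a was present in 10 copies with a median spacing of 2462 bp, Mir669a in 12 copies with a median spacing of 2457 bp and Mir466b in 8 copies with a median spacing of 2470 bp. The 10 copies of Mir467a held 3 distinct hairpin sequences and the 12 copies of Mir669a held 4, and the whole family held 63.

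The other 10 hairpins lay on 7 other chromosomes, so the family is wider than the intron cluster. Mir466q (chr3:28419943-28420018) lay within Tnik, Mir466i (chr13:17747473-17747593) within Cdk13 and Mir467f (chr11:69635400-69635519) within Fxr2. Their part in the family level was small. Of the 2442 family reads, 2433 (99.6%) matched at least 1 hairpin of the intron cluster, and 9 matched only hairpins elsewhere.

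The samples held 2201520 to 17691405 reads, of which 61.5% to 70.9% matched a named hairpin. LPS replicate 2 stood apart before any comparison was made. It had the most reads, and singletons made up 18.6% of its distinct sequences, where the other 5 samples had 67.1% to 74.6%. Of the 4 listed myeloid miRNAs, Mir223 at 6089 to 6578 and Mir142 at 25898 to 30855 RPM were at like levels throughout. Mir21a, the most abundant of the list, varied more. It was at 161077, 165923 and 124980 RPM in the control samples and at 162675, 130355 and 124208 with LPS. Mir155, which is induced in activated macrophages, was at 213 RPM in LPS replicate 2 and at 49.1 to 76.0 in the other 5 samples. The summed epithelial list (Mir200a, Mir200b, Mir200c, Mir141 and Mir429) was at 173 RPM in LPS replicate 2 against 78.3 to 98.8 elsewhere. Within that list Mir200a, Mir200b and Mir200c were higher there than in any other sample, while Mir141 at 23.0 and Mir429 at 15.9 were within the range of the others. In the same sample Mir150 of lymphocytes was at 49.3 against 14.9 to 23.3. Of the embryonic stem cell list, 9 of 10 hairpins were annotated, and the list gave 0 reads in 5 samples and 2 reads, of Mir295, in LPS replicate 3.

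The family was detected in every sample as a low-abundance group. The control samples gave 369, 124 and 173 family reads, in the order of their numbers 1 to 3 (the order used throughout), and the LPS samples gave 427, 1242 and 107. In RPM this was 144 (95% Wilson interval 130 to 160.0), 72.5 (60.8 to 86.4) and 73.2 (63.1 to 85.0) in the control samples. The LPS samples were at 135 (123 to 148), 114 (108 to 120.3) and 71.5 (59.2 to 86.4). The samples numbered 1 were the highest of both groups, the samples numbered 3 were near the lowest, and the groups overlapped over nearly their whole range. The intervals cover counting error only, and reads were not collapsed by molecular identifiers.

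**Figure D1:**
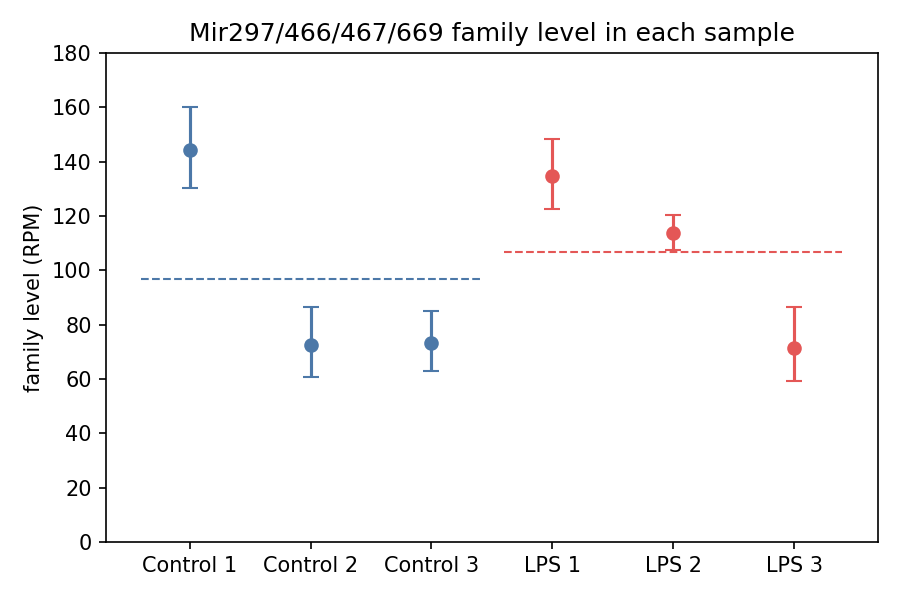
Family level in RPM (y axis) in each of the 6 samples, blue for control and red for LPS, with 95% Wilson intervals as bars and the group means as dashed lines. Control 1 and LPS 1 sit at 144 and 135, and the lowest sample of each group sits at 72.5 and 71.5.

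The mean level was 96.7 ± 41.3 RPM in control (SD, n = 3) and 107 ± 32.3 with LPS (SD, n = 3). The mean log2 level was 6.52 in control and 6.69 with LPS, a difference of 0.17, and an exact two-sided permutation test gave p = 1, where the smallest p that 3 against 3 allows is 0.1. Within samples of the same number, LPS over control was 0.934-fold in pair 1, 1.57-fold in pair 2 and 0.976-fold in pair 3. Only the pair that holds LPS replicate 2 was above 1. The log2 difference was 0.10 without LPS replicate 2, -0.021 without LPS replicate 1 and 0.50 without Control replicate 1. As a single row of the edgeR quasi-likelihood fit, the summed family had a log2 fold change of 0.12 ± 0.39 (SE) and an adjusted p of 0.998. In whole-cell samples, fewer cells of a type and less RNA per cell cannot be told apart.

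**Figure D2:**
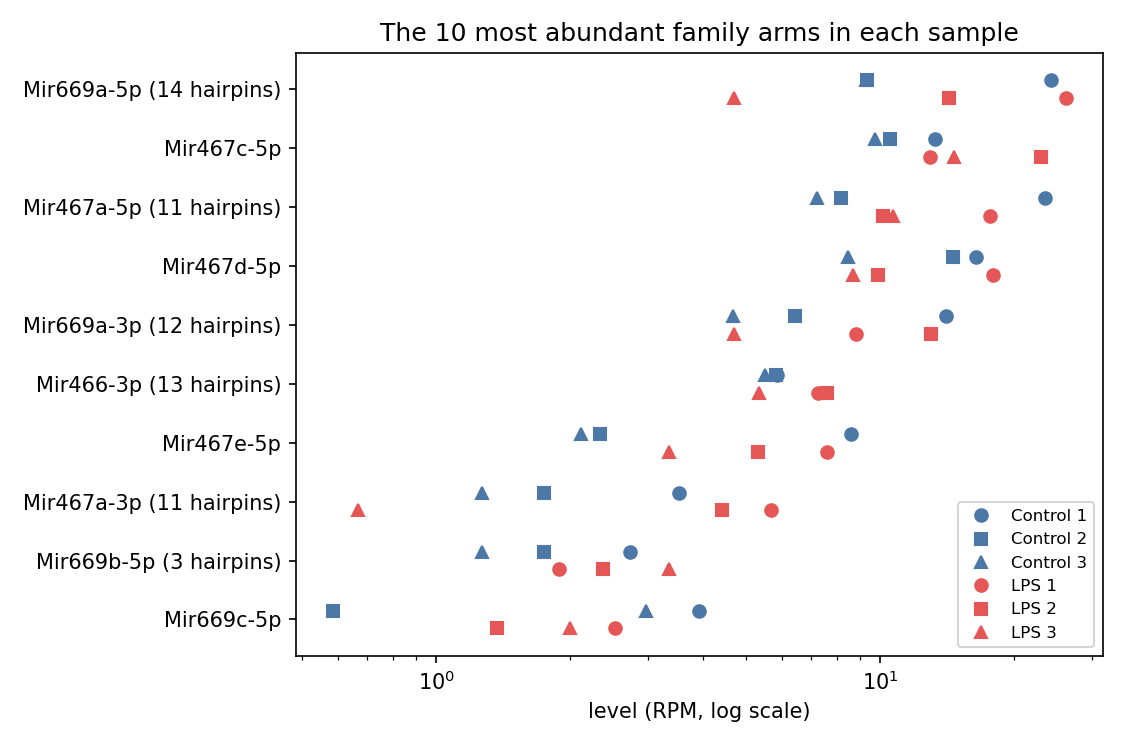
Level in RPM (x axis, log scale) of the 10 most abundant family arms, blue for control and red for LPS, with circles, squares and triangles for replicates 1, 2 and 3. The arms range from under 1 to 26.2 RPM, and for Mir669a-5p the circles lie at 24.3 and 26.2 while the other 4 samples lie at 4.68 to 14.3.

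The family reads were concentrated in few arms. Of 41 family arms with reads, the 6 leading ones held 68.1% of the family reads and the 10 leading ones 79.8% (means of 6 samples). Their order was similar but not fixed, and most neighbours in it overlapped. By mean level, Mir669a-5p stood first at 14.7 RPM, followed by Mir467c-5p at 14.04, Mir467a-5p at 12.9 and Mir467d-5p at 12.7. These 4 arms had ranges over samples that overlapped throughout, so no order among them holds beyond the spread. Mir669a-3p followed at 8.62, Mir466-3p at 6.24, Mir467e-5p at 4.88, Mir467a-3p at 2.88, and Mir669b-5p and Mir669c-5p at 2.23 each.

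By subfamily, the 17 Mir467 hairpins gave 1132 reads, the 30 Mir669 hairpins 831, the 28 Mir466 hairpins 415 and the 6 Mir297 hairpins 82. Mir467 was at 65.8, 37.4 and 28.8 RPM in the control samples and at 62.9, 52.8 and 38.1 with LPS. Mir669 was at 54.02, 22.2 and 23.7 in control and at 49.0, 37.8 and 20.7 with LPS. Mir466 was at 22.3, 10.5 and 17.4 in control and at 20.2, 20.1 and 10.7 with LPS. Mir297 was at 4.70, 2.34 and 3.39 in control and at 2.84, 4.22 and 2.00 with LPS. In all 6 samples the order was Mir467, Mir669, Mir466 and Mir297, and within each subfamily the control and LPS ranges overlapped.

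Mir669a-5p, whose read matches 14 near-identical hairpins (12 Mir669a copies and 2 Mir669p copies), was high in both samples numbered 1. It was at 24.3, 9.35 and 9.31 RPM in the control samples and at 26.2, 14.3 and 4.68 with LPS. The 2 samples numbered 1 were the highest, and their Wilson intervals (18.9 to 31.1 and 21.2 to 32.5) lay above those of the other 4 samples, the highest of which reached 16.7. The log2 fold change with LPS was 0.08 ± 0.66 (SE).

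Mir467a-5p, shared by 11 hairpins, was also highest in the samples numbered 1. It was at 23.5, 8.18 and 7.20 RPM in the control samples and at 17.7, 10.2 and 10.7 with LPS. The log2 fold change was -0.06 ± 0.54 (SE). Mir467e-5p, cut from 1 hairpin (chr2:10505721-10505807), was at 8.61, 2.34 and 2.12 in control and at 7.58, 5.31 and 3.34 with LPS. It rested on 4 and 5 reads in Control replicates 2 and 3, and its log2 fold change was 0.28 ± 0.63 (SE).

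Mir467c-5p, cut from 1 hairpin (chr2:10473931-10474027), had the largest fold change of the tested family arms. It was at 13.3, 10.5 and 9.74 RPM in the control samples and at 12.95, 23.0 and 14.7 with LPS. LPS replicate 2 was the highest and LPS replicate 1 lay within the control range. The log2 fold change was 0.59 ± 0.31 (SE), with an unadjusted p of 0.1003 and an adjusted p of 0.999 by edgeR's quasi-likelihood test. With LPS replicate 2 left out it was 0.24. The part of the markers that stood apart in that sample was not tested.

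Mir467d-5p, also cut from 1 hairpin (chr2:10507630-10507714), was at 16.4, 14.6 and 8.47 RPM in the control samples and at 18.01, 9.90 and 8.69 with LPS, a log2 fold change of -0.12 ± 0.42 (SE). The 3p side of Mir669a, shared by 12 hairpins, was at 14.1, 6.43 and 4.66 in control and at 8.84, 13.01 and 4.68 with LPS, a log2 fold change of 0.11 ± 0.54 (SE). Both arms overlapped between the groups, and their highest samples differed.

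Mir466-3p, shared by 13 hairpins, varied little among the samples. It was at 5.87, 5.84 and 5.50 RPM in the control samples and at 7.27, 7.61 and 5.35 with LPS. The 2 highest samples were both LPS samples and the lowest was the third LPS sample. The log2 fold change was 0.25 ± 0.27 (SE). This arm did not show the high level in Control replicate 1 that Mir669a-5p and Mir467a-5p did, with 15 reads and a Wilson interval of 3.56 to 9.69 RPM.

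Across the family, 7 arms, which held 72.9% of the family reads, had enough reads for the test, and 34 did not. Of these 7, edgeR called 0 higher and 0 lower under LPS (adjusted p under 0.05), where 0 of 318 arms in all (0%) were called. At an unadjusted p under 0.05 the count was 0 of 7 in the family and 8 of 318 in all (2.52%), and with DESeq2 it was 0 in the family and 4 in all. The log2 fold changes of the 7 arms ran from -0.12 to 0.59 with a median of 0.11, and the median over all 318 arms was 0.01. Of the 7 arms, 5 had values above 0 and 2 below. In 0 of the 7 did the control and LPS values not overlap, and among all arms that was so for 10 (3.14%). In 4 of the 7 (Mir669a-5p, Mir467a-5p, Mir467d-5p and Mir467e-5p) Control replicate 1 and LPS replicate 1 were the 2 highest samples, which was so for 66 of all 318 arms (20.8%). The last count was made after the values had been seen, and no test was run on it.

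The 34 untested arms had 1 to 82 reads each in all, and 6 of them had reads in all 6 samples. Mir467a-3p was at 3.52, 1.75 and 1.27 RPM in the control samples and at 5.69, 4.40 and 0.668 with LPS. Mir669b-5p was at 2.74, 1.75 and 1.27 in control and at 1.90, 2.38 and 3.34 with LPS. Mir669c-5p was at 3.91, 0.584 and 2.96 in control and at 2.53, 1.37 and 2.00 with LPS. A count of 3 reads corresponds to 0.275 to 2.00 RPM in these libraries, so the lowest of these values are near or below it. Without the low-count filter edgeR tested all 41 family arms and called 0 (lowest adjusted p = 0.900, and 0 at an unadjusted p under 0.05), where 20 of 964 arms in all (2.07%) were called.

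The hairpins could be told apart only in part. Reads that matched 1 hairpin made up 46.0% of the family reads (mean of 6 samples) and reads that matched over 10 hairpins 43.3%. At least 1 read was found for 71 of the 81 hairpins, 65 of 71 in Sfmbt2 and 6 of 10 elsewhere. Only 25 hairpins had a read that fits no other hairpin, 23 in Sfmbt2 and 2 elsewhere. Mir467c with 392 such reads, Mir467d with 265 and Mir467e with 118 had the most. Among the rest, Mir669c (chr2:10509296-10509404) had 44, Mir466g (chr2:10514595-10514674) 41, Mir669l 39, Mir297b 37 and Mir669o 31. Outside Sfmbt2, Mir297-1 on chromosome 7 and Mir466q on chromosome 3 had 4 reads each that fit no other named hairpin. Those of Mir297-1 were a single sequence, a TATG repeat with 3 unmatched 3′ bases. Its matched bases also lay in annotated transcripts of 118 other genes, so its source is not known. The leading read of Mir466q was almost wholly a TG repeat.

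**Figure D3:**
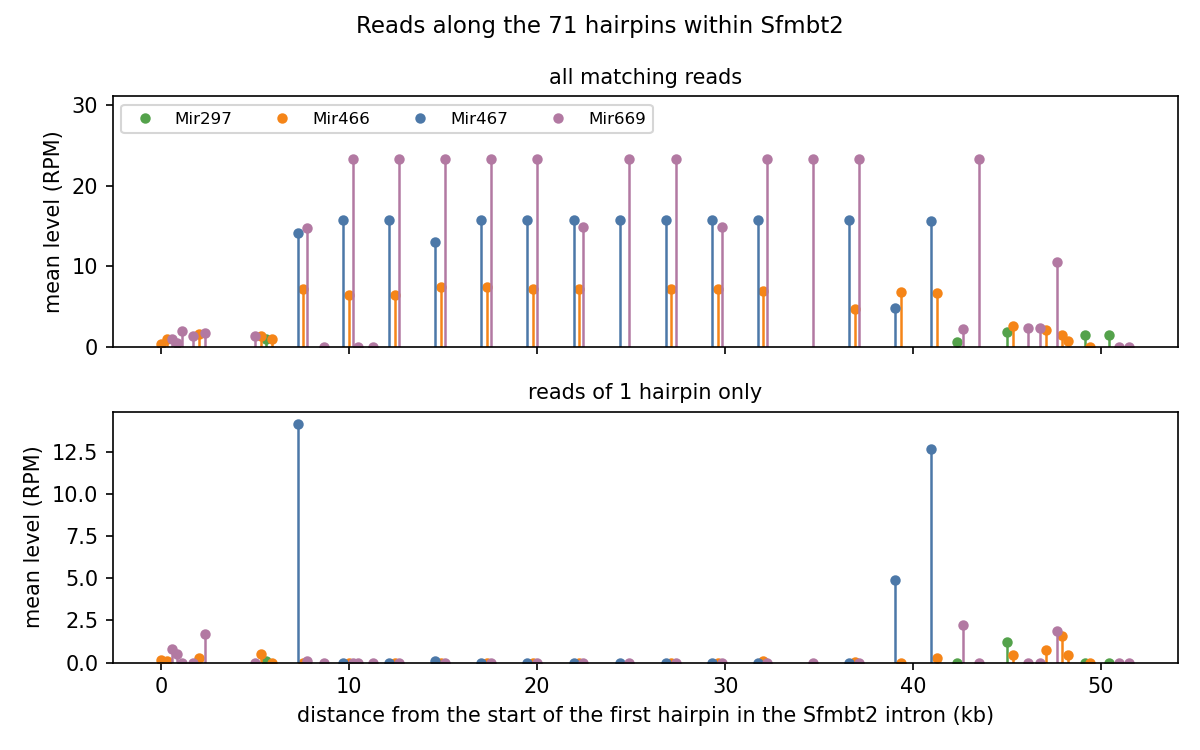
Mean RPM of each of the 71 hairpins in Sfmbt2 (y axis) against the distance in kb from the start of the first (x axis), coloured by subfamily, with all matching reads above and reads of 1 hairpin only below. The repeated Mir669a, Mir467a and Mir466b copies in the middle largely share their reads and have almost none of their own, while Mir467c, Mir467e and Mir467d at 7.27, 39.1 and 41.0 kb have 14.2, 4.88 and 12.7 RPM of their own.

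Each of the 10 Mir467a copies matched 356 reads, none of which was its own. Mir669a-1 matched 581 reads, with 0 of its own. Which copies were the source of these reads cannot be told from the sequences. The 10 hairpins without a read were Mir466l, Mir467f, Mir467g, Mir467h, Mir669g, Mir669h, Mir669i, Mir669j, Mir669k and Mir669n. Of these, 4 lie outside Sfmbt2, including all 3 Mir467 hairpins there.

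The family reads had the length of mature miRNAs. Their mean length was 22.04 nt, as in other hairpin reads at 22.08 nt, and 97.9% were of 20 to 24 nt. Within this range 21 nt was more common in the family, at 22.3% of reads against 9.999% of other hairpin reads, and 20 nt less common, at 6.69% against 12.8%. Only 4 reads matched the opposite strand of a family hairpin. None of the 262 distinct family sequences matched a named hairpin outside the family, and 25 of them, with 68 reads (2.78%), also lay in annotated transcripts of other genes. A single read was a pure CA or TG repeat, a count that leaves out other repeats such as the TATG repeat matched to Mir297-1.

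**Figure D4:**
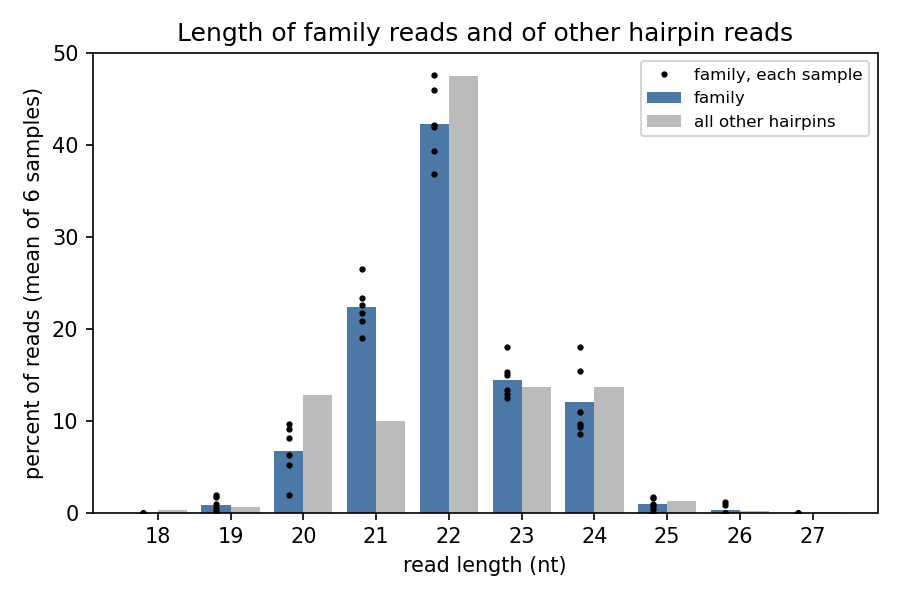
Percent of reads at each length in nt, as means of 6 samples, for the family (blue) and for all other hairpins (grey), with the family value of each sample as a point. Both peak at 22 nt, with 42.3% of family reads and 47.5% of other hairpin reads.

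More of the family reads came from the 5p side, 1833 against 609. The 5p share was 73.4% to 78.5% over the 6 samples and 46.4% to 49.2% for other hairpin reads. The difference of 27.8 percentage points had the same sign in 6 of 6 samples (exact two-sided sign-flip test, p = 0.03125, the smallest that 6 samples allow, adjusted to 0.0938 over 6 measures). The GC content of family reads was 40.2% against 44.0% (same direction in 6 of 6 samples, exact p = 0.03125, adjusted to 0.0938). The share of reads with an unmatched 3′ base was 8.41% against 10.9% (5 of 6 samples, exact p = 0.125, adjusted to 0.25). None of the 6 measures, which also included the mean length, the share of 20 to 24 nt and the share of 24 nt, passed an adjusted p of 0.05. The 5p share and the GC content stood at the smallest exact p that 6 samples allow. Their adjusted p could pass only if more of the 6 measures also stood there, so the threshold could not decide on them. They were chosen after the data had been seen. These shares, and those of length above, are counted over reads. Abundant hairpins such as Mir21a, at 124208 to 165923 RPM, therefore weigh most among the other hairpin reads. The same hairpins recur in all 6 samples, so an equal sign in all 6 does not extend to hairpins in general.

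The start of the Mir467 5p reads varied by 1 base, which moves the seed. Such a shift was not particular to Mir467. Mir466-3p also had reads that began 1 base upstream, with seed ATACATA. The most abundant of them had 25 reads in all, against 41 for the Mir466-3p read shown above. As means of the 6 samples, 77.9% of Mir467c-5p reads began at the downstream base (seed AAGTGCG) and 22.1% at the base before it (seed TAAGTGC). In Mir467a-5p, 86.6% began at the downstream base and 13.4% upstream. In Mir467d-5p the mean was 41.5% downstream and 58.5% upstream, but neither start was the more common in every sample. The downstream share of Mir467e-5p was 50%, 0% and 20% in the control samples and 37.5%, 60.3% and 60% with LPS, on 4 or 5 reads in Control replicates 2 and 3 and LPS replicate 3.

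**Figure D5:**
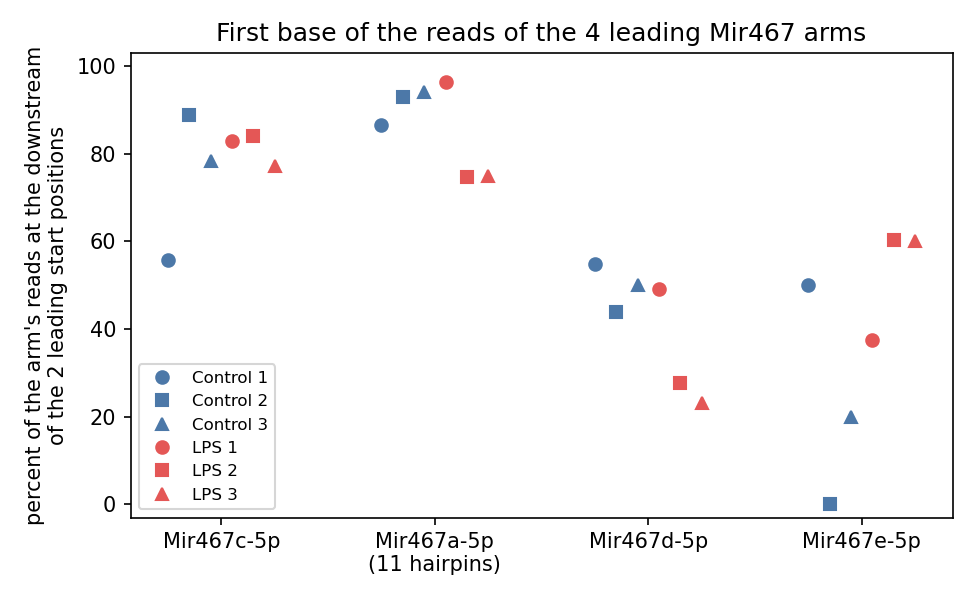
Percent of the reads of each of 4 Mir467 5p arms that begin at the downstream of their 2 start positions (y axis), in each sample, blue for control and red for LPS. Mir467a-5p lies at 74.8% to 96.4%, above Mir467d-5p at 23.1% to 54.8%, in every sample.

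The downstream share of Mir467d-5p was 54.8%, 44.0% and 50% in the control samples and 49.1%, 27.8% and 23.1% with LPS. For Mir467a-5p it was 86.7%, 92.9% and 94.1% in control and 96.4%, 74.8% and 75.0% with LPS. In both arms LPS replicates 2 and 3 were the lowest and LPS replicate 1 lay within or above the control values. Mir467c-5p and Mir467e-5p did not follow this. Mir467c-5p was at 55.9%, 88.9% and 78.3% in control and at 82.9%, 84.1% and 77.3% with LPS, lowest in Control replicate 1. In Mir467e-5p LPS replicates 2 and 3 were the highest. The share of Mir467d-5p rested on 13 reads in LPS replicate 3 and on 20 to 108 in the other samples. That of Mir467a-5p rested on 14, 17 and 16 reads in Control replicate 2, Control replicate 3 and LPS replicate 3. In the same samples that of Mir467c-5p rested on 18, 23 and 22 reads.

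Grouped by seed, GTTGTGT, mainly of Mir669a-5p, was at 16.9 RPM (mean of 6 samples) and AAGTGCG of Mir467c-5p and Mir467d-5p at 16.5. TAAGTGC, of the upstream starts of Mir467a-5p, Mir467c-5p and Mir467d-5p, was at 11.9. AAGTGCC of Mir467a-5p was at 11.2 and CATAACA, mainly of Mir669a-3p, at 8.27. Hairpins outside the family gave 0 reads with any of these 5 seeds in any sample. This count is for the full seed, and reads sharing only a part of it were not counted. The letters AAGTGC at bases 2 to 7 are known from the miRNAs of embryonic stem cells, and 8 mature miRNAs of the RefSeq mouse table carry them, among them miR-291a-3p, miR-294-3p, miR-295-3p and miR-302b-3p. That table held 9 of the 81 members.

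Within Sfmbt2 the annotation also lists 48 miRNA genes without a Mir name. Reads matched 7 of them, with 1161 reads that also match the family and 2 reads that match no named hairpin. Compared with the Dlk1-Dio3 region, the other large imprinted miRNA cluster of the mouse, the Sfmbt2 family stood far higher. The 61 miRNA hairpins between Dlk1 and Dio3 gave 2, 2 and 5 reads in the control samples and 3, 24 and 2 with LPS, or 0.783 to 2.20 RPM, and 6 of the 61 had a read. The family held 184.5, 62 and 34.6 times as many reads in the control samples and 142, 51.8 and 53.5 times as many with LPS. The mean log2 ratio was 6.20 ± 0.94 (SD, n = 6), above 0 in 6 of 6 samples. An exact two-sided sign-flip test gave p = 0.03125, the smallest that 6 samples allow. Both lists were chosen with earlier results of these data known, so this p adds nothing to the ratios themselves. The ratio is imprecise in size, since 4 of the 6 samples had 2 or 3 reads in the Dlk1-Dio3 region.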

How the data were processed

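The authors prepared small RNA libraries (TruSeq Small RNA, HiSeq), trimmed adaptors (perl scripts, Btrim64) and ran mirAnalyzer for quantification, whose output was not used here. The submitters' processing notes name mm9. The deposited values are raw counts, 1 per distinct trimmed read of 11 to 40 nt, without names or normalization.

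Reads of at least 18 nt were matched to the 1174 named hairpins of GENCODE M21 (GRCm38), with up to 3 unmatched 3′ bases. Arms were set by the hairpin midpoint and merged when they shared at least 50% of each other's reads. Multi-arm reads went to the arm with most reads of its own. The family sum was compared by exact permutation. Arms were tested with edgeR 4.0.16 (R 4.3.3; filterByExpr, TMM, quasi-likelihood, Benjamini-Hochberg, 964 arms with reads, 318 tested), and DESeq2 1.42.0 was an alternative. Both steps were run on simulated data. The counts simulated for edgeR had less spread than these samples, whose common dispersion was 0.11, and larger changes than the family arms. That run does not show what the test could detect here. Each SE of an edgeR log2 fold change was derived as its absolute value over the square root of the test's F value. It is not an error fitted by edgeR. Python 3.11.15 and scipy 1.17.1 were used.

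Samples were grouped by their labels. The labels number the samples 1 to 3 in both groups. Each arm's departure from its group mean had a correlation of 0.59, 0.26 and 0.28 between equal numbers and of -0.39 to 0.15 between unequal ones. Departures from the mean of 3 samples are tied to each other, so these correlations are not independent. The main tests were unpaired. Equal numbers were treated as pairs only in the pair ratios and the replicate block. Named arms are those that passed the filter and the 10 most abundant. The members and lists were chosen with earlier results of these data known. Depth was 1496303 to 10913216 hairpin reads per sample, so a floor of 3 reads is 0.275 to 2.00 RPM (reads per 1000000 hairpin reads). Alternatives were exact matches, reads of at least 20 nt, Sfmbt2 hairpins only, whole-file totals, no TMM, no filter, DESeq2, the replicate block and each sample left out. Added after the data were seen were the removal of reads found in other transcripts and the block without pair 2.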

Additional observations from a re-analysis of the deposited data

How the results depend on the processing

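The log2 difference of the family level was 0.087 when scaled to all reads of a file and 0.17 to 0.25 under the other planned settings, with exact p of 0.8 to 1. It ran from -0.021 to 0.50 with 1 sample left out, below 0 without LPS replicate 1 and highest without Control replicate 1. Compared within pairs it was 0.17 as a block, where 3 pairs allow no p under 0.25, and -0.067 with pair 2 left out. The log2 fold change of the summed family row was 0.12 to 0.19 with DESeq2 and the other settings, 0.15 with the replicate block (adjusted p = 0.867), and -0.11 to 0.56 with 1 sample left out, below 0 without Control replicate 2, Control replicate 3 or LPS replicate 1. With the block and without pair 2 it was -0.083. The count of family arms called was 0 in each direction under all 13 alternatives, by edgeR or DESeq2. The ratio to the Dlk1-Dio3 region lay between 5.93 and 6.41 on the log2 scale with 1 sample left out, where 5 samples allow no exact p under 0.0625.

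Of 91 refits of single arms, 18 changed sign and 0 passed the threshold (lowest adjusted p = 0.408). With 1 sample left out, the log2 fold change ran from -0.50 to 0.78 for Mir669a-5p, from -0.40 to 0.78 for Mir467a-5p, from -0.52 to 0.14 for Mir467d-5p, from -0.30 to 0.79 for Mir669a-3p and from -0.087 to 1.36 for Mir467e-5p. Under the replicate block Mir467a-5p was at 0.060. With the block and without pair 2, Mir669a-5p was at -0.13, Mir467d-5p at 0.10, Mir669a-3p at -0.51 and Mir467e-5p at -0.015. Mir467c-5p and Mir466-3p stayed above 0 throughout. The cause of these changes was not tested. The removal of reads that also lie elsewhere in the genome was not run. Reads shared with annotated transcripts of other genes were removed in its place, which gave a log2 difference of 0.20.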
